A study of Mus musculus with 7 samples.

Results

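The Pax genes code for transcription factors that bind DNA through a shared paired domain, and the survey of whole mouse embryos at E10.5 measured 8 of the 9. Every probe set that the array annotation assigns to Pax1 to Pax9 was taken, 14 of 22690 in all, with 5 for Pax6, 2 each for Pax3 and Pax9, 1 each for Pax1, Pax4, Pax5, Pax7 and Pax8, and none for Pax2, which is not analysed here. Whole-embryo RNA was hybridized to 7 Affymetrix 430A 2.0 arrays, 1 embryo per array. The groups were 2 embryos with a neural tube defect (NTD) from a diabetic dam, 3 embryos without an identified malformation from a diabetic dam, and 2 control embryos from an untreated pregnancy, all of the inbred strain FVB. Diabetes was induced in the dams with streptozotocin, a toxin of the insulin-producing cells, before mating. The study's text states that the exposed embryos came from a single diabetic dam and the controls from a single other dam, and diabetes and litter therefore cannot be told apart, while each p-value is set against the spread between littermates. In whole embryos, fewer cells of a type and less RNA per cell cannot be told apart either.

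Pax genes mark out regions of the embryo before organs are formed. Pax3 and Pax7 are expressed in the dorsal neural tube, the neural crest and the dermomyotome, and mice that lack Pax3 function fail to close the neural tube. Pax6 is required for the eye and patterns the forebrain and spinal cord, Pax2, Pax5 and Pax8 act at the midbrain-hindbrain boundary and, for Pax2 and Pax8, in the kidney, Pax1 and Pax9 act in the sclerotome, which forms the vertebrae, and Pax4 acts in the endocrine pancreas.

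The values are MAS5 signals, linear probe set intensities that the authors had scaled on each array, and the median signal of an array was 206 to 218. A probe set was tested where it lay at or above the 40th percentile of the array (131 to 146) in 2 or more of the 7 arrays, which 14554 probe sets did. Of the 14 Pax probe sets, 8 passed, for Pax1, Pax3, Pax6, Pax7, Pax8 and Pax9. Differences are log2 fold changes fitted with limma to log2 signals of all tested probe sets, given with their 95% interval, and calls were made where the p adjusted by Benjamini-Hochberg was under 0.05. At or above the 40th percentile on every array lay 8 of 10 marker genes of neural tissue, 6 of 6 of heart, 7 of 7 of primitive red blood cells, 3 of 7 of limb bud and somite, 4 of 12 of yolk sac and liver and 2 of 5 of placenta and decidua, against 59.1% of all genes. Exposed embryo 1 without NTD stood apart in transcripts of yolk sac endoderm and liver, whose 12 measured genes had a summed signal of 25252, whereas the sum was 1706 to 4252 elsewhere, and 10 of the 12 were highest in it. The sex-linked Xist had signals of 6074 to 7533 in 4 exposed embryos, 256 in exposed embryo 2 with NTD, and 181 and 165 in the controls. The Y-linked Eif2s3y ran the other way, with 0.55 to 2.76 in those 4 embryos. It had 245 in exposed embryo 2 with NTD, and 227 and 203 in the controls. Uty and Kdm5d, also Y-linked, were likewise highest in these last 3 embryos. By these transcripts the 3 were male and the 4 others female, so diabetes and sex largely cannot be told apart. The labels give no sex. The part of the yolk sac and sex differences in the Pax values was not tested.

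None of the 6 tested Pax genes was called between exposed and control embryos. Of the 8 tested Pax probe sets 0 were called, where 25 of all 14554 were (0.172%), of which 16 had a higher signal with exposure (0.11%) and 9 a lower (0.0618%), and 0 of the 8 had an unadjusted p under 0.05, where 2351 of 14554 did (16.2%). The count over all probe sets rested on few embryos, as it was 1 without control 1, 0 without control 2, and 6, 10, 19, 40 or 58 when an exposed embryo was left out. The log2 fold changes ran from -0.53 to 0.28, with adjusted p-values of 0.514 to 0.957. They were positive for 4 probe sets and negative for the other 4, and their median was -0.01, against 0.00 over all tested probe sets. In 0 of the 8 did the 5 exposed embryos all lie on the same side of both controls, which occurred for 24.7% of all tested probe sets, nor did they in any of the 14 without the filter (20.6% of all). The ratio of mean signals was beyond 1.5 in either direction for 0 of the 8, against 7.65% of all tested probe sets. With only 2 controls the intervals are wide, and they stayed within 2-fold in either direction for 5 of the 8 probe sets, 2 of Pax3 and 1 each of Pax6, Pax7 and Pax8.

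**Figure D1:**
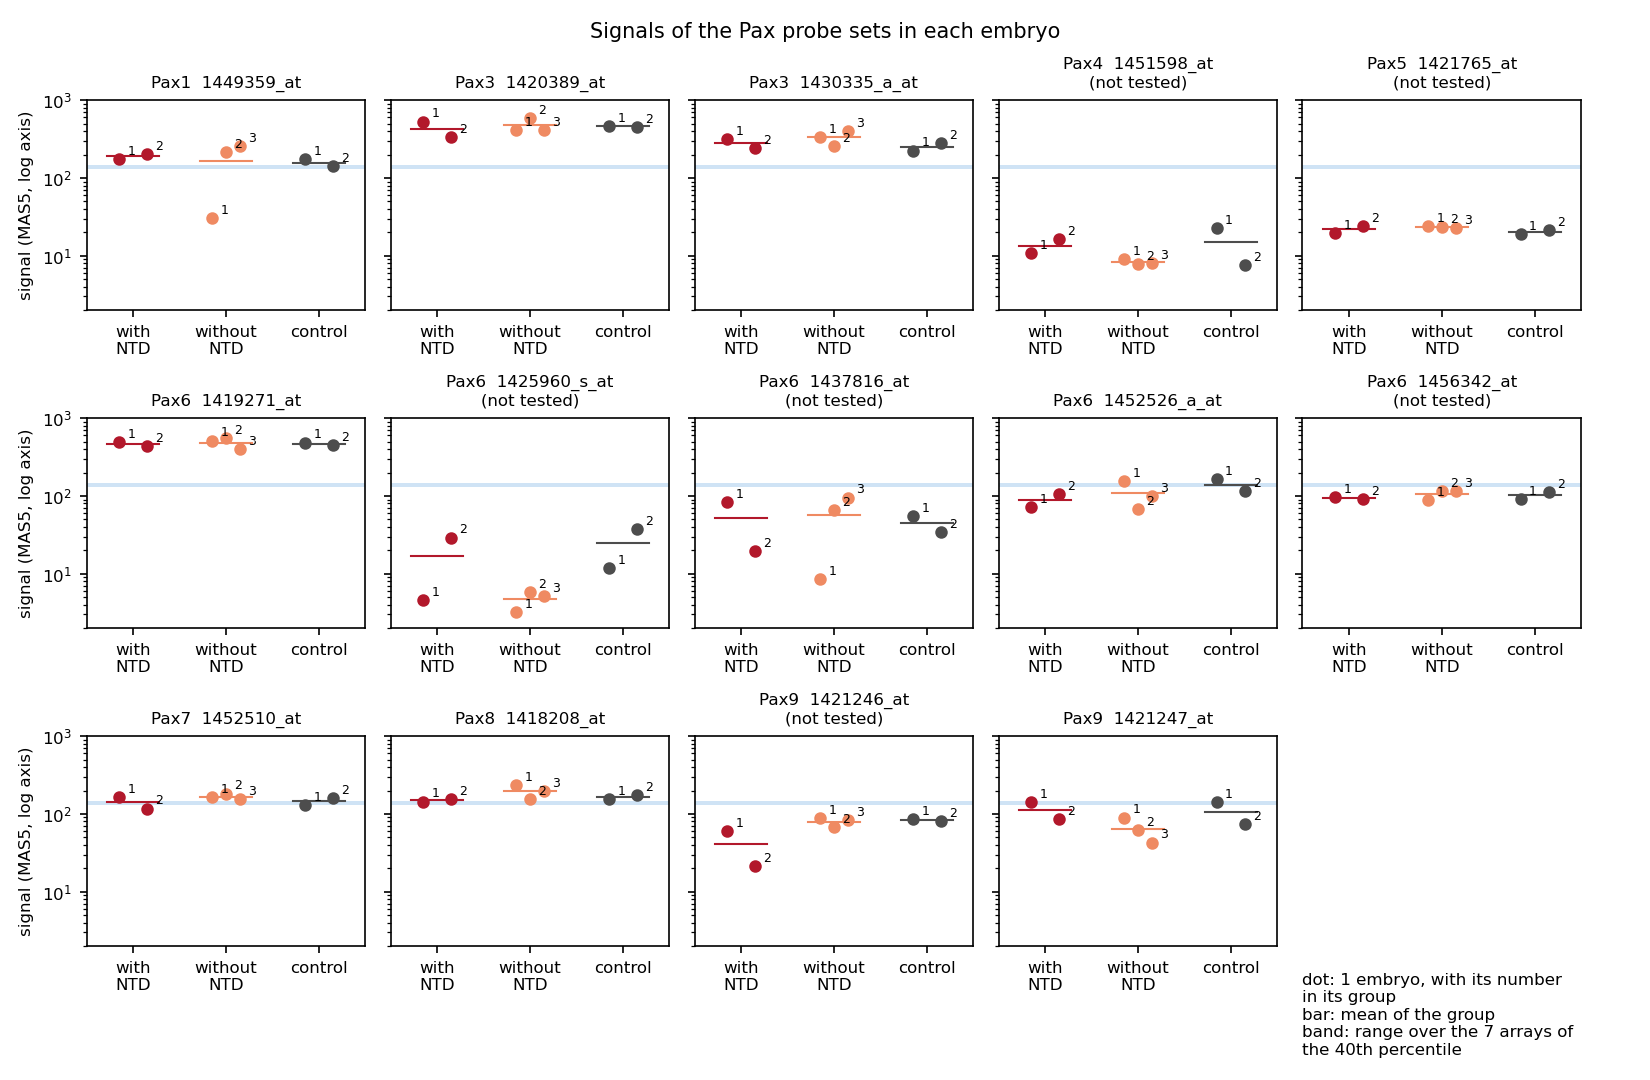
MAS5 signals (log axis) of the 14 Pax probe sets in each embryo, by group from left to right: exposed with NTD, exposed without NTD, control. Dots are embryos with their number in the group, bars are group means, and the band is the range over the 7 arrays of the 40th percentile. Pax3 (1420389_at) and Pax6 (1419271_at) lie above the band on all 7 arrays, Pax1 has a single low embryo at 30.3, and Pax4 and Pax5 lie far below the band on all arrays.

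Pax3, whose loss leaves the neural tube open in mouse mutants, was measured by 2 probe sets, and both were above the filter on all 7 arrays. The study's text, however, states that its array held no Pax3 probe set, whereas the annotation used here assigns these 2. It reports that Pax3 did change in a quantitative PCR assay published elsewhere, and cites lower Pax3 in embryos of diabetic dams at an earlier stage. Those measurements were not compared with the signals here. The first, 1420389_at, had signals of 531 and 332 in the embryos with NTD and 413, 596 and 416 in those without NTD, against 471 and 451 in the controls. The exposed embryos spanned the controls, with 2 above and 3 below, and the 2 embryos with NTD lay on opposite sides of them. The mean was 458 ± 105 (SD, n = 5) in exposed embryos against 461 ± 14.4 in the 2 controls, a log2 fold change of -0.04 (standard error 0.21, 95% interval -0.50 to 0.42, limma adjusted p = 0.948). On the fold scale this interval runs from 0.707 to 1.34 of the control level.

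The second Pax3 probe set, 1430335_a_at, whose suffix marks probes shared by several transcripts of a gene, had signals of 313 and 244 in the embryos with NTD and 332, 259.7 and 405 in those without NTD, against 225 and 280.1 in the controls. Here 3 exposed embryos lay above both controls and 2 between them. The mean was 311 ± 64.1 (SD, n = 5) in exposed embryos against 253 ± 38.8 in the 2 controls, a log2 fold change of 0.28 (standard error 0.21, 95% interval -0.18 to 0.75, limma adjusted p = 0.534). The value was 0.13 without control 1 and 0.44 without control 2. The probe sets ranked the embryos differently, since exposed embryo 3 without NTD was the highest by 1430335_a_at but below both controls by 1420389_at. Exposed embryo 2 with NTD was the lowest of the 5 exposed embryos by both.

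Pax7, the paralogue of Pax3 in the dorsal neural tube and the dermomyotome, had signals of 164 and 117 in the embryos with NTD and 165, 182 and 154 in those without NTD, against 131 and 162 in the controls. Exposed embryo 2 with NTD was again the lowest, here of all 7 embryos, and 3 exposed embryos lay above both controls. The log2 fold change was 0.09 (95% interval -0.43 to 0.61, limma adjusted p = 0.888). The signals lay between the 36.6th and 46.9th percentiles of the arrays, close to the filter.

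Pax6 was represented by 5 probe sets, of which 2 were tested and differed in level and in precision. The bright one, 1419271_at, had signals of 496 and 437 in the embryos with NTD and 515, 549 and 397 in those without NTD, against 487 and 449 in the controls. Its exposed embryos lay on both sides of the controls, with 3 above and 2 below. The means were 479 ± 61.4 (SD, n = 5) in exposed embryos against 468 ± 27.0 in the 2 controls, a log2 fold change of 0.02 with the narrowest interval of the tested Pax probe sets (-0.32 to 0.37, limma adjusted p = 0.957).

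The dimmer Pax6 probe set 1452526_a_at passed the filter in 2 arrays, those of exposed embryo 1 without NTD and control 1. It had signals of 71.9 and 105 in the embryos with NTD and 156, 67.7 and 99.7 in those without NTD, against 164 and 115 in the controls. Exposed embryo 1 without NTD lay between the controls and the other 4 exposed embryos below both. The log2 fold change of -0.53 was the lowest of the 8, with a 95% interval of -1.35 to 0.30 and a limma adjusted p of 0.514. It was -0.27 without control 1 and -0.78 without control 2. Without exposed embryo 1 without NTD it was -0.70 (95% interval -1.47 to 0.06, limma adjusted p = 0.334), and the 4 remaining exposed embryos lay below both controls, as 29.1% of all tested probe sets then did not overlap.

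The other 3 Pax6 probe sets were below the filter on all 7 arrays. Probe set 1456342_at had signals of 96.5 and 91.5 in the embryos with NTD and 88.2, 116 and 115 in those without NTD, against 90.8 and 112 in the controls, and its groups overlapped. Probe set 1437816_at ranged from 8.44 to 95.5 in exposed embryos, against 55.5 and 34.0 in controls. Probe set 1425960_s_at, whose suffix marks probes that can match transcripts of several genes, had signals of 4.61 and 29.1 in the embryos with NTD and 3.17, 5.85 and 5.12 in those without NTD, against 11.7 and 37.2 in the controls. All of these last values lay below the 17th percentile of their array, and fitted without the filter the probe set was not called (limma adjusted p = 0.457).

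**Figure D2:**
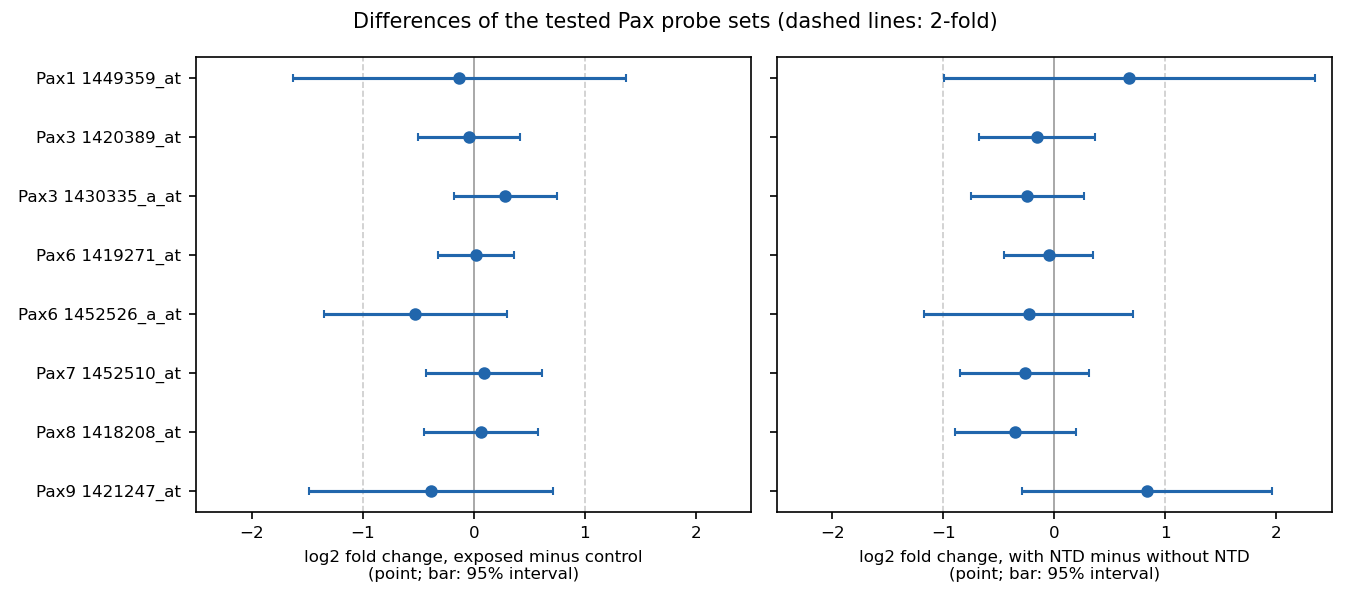
Log2 fold changes (points) with 95% intervals (bars) of the 8 tested Pax probe sets, exposed minus control on the left and with NTD minus without NTD on the right, and dashed lines at 2-fold. All 16 intervals include 0, and those of Pax1, Pax9 and the dimmer Pax6 probe set reach beyond 2-fold in both panels.

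Pax1, a regulator of the sclerotome, was low in a single exposed embryo and above both controls in the other 4. Its probe set 1449359_at had signals of 175 and 205 in the embryos with NTD and 30.3, 215 and 255 in those without NTD, against 173 and 142 in the controls. The low value of 30.3, at the 14th percentile of its array, was that of exposed embryo 1 without NTD, which also held the most yolk sac transcript. Over all 7 embryos the ratio of mean signals was 1.12, but the log2 fold change was -0.13 (standard error 0.68, 95% interval -1.63 to 1.37, limma adjusted p = 0.946), so that the scale set the sign. Without that embryo the log2 fold change was 0.43 (95% interval -0.03 to 0.89), all 4 exposed embryos lay above both controls, and the probe set was still not called (limma adjusted p = 0.328). Whether the yolk sac signal of that embryo has a part in its low Pax1 value was not tested.

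Pax9, which acts with Pax1 in the sclerotome and is also expressed in the pharyngeal pouches, did not share this low value. Its tested probe set 1421247_at had signals of 141 and 86.0 in the embryos with NTD and 89.9, 61.4 and 42.7 in those without NTD, against 141 and 73.4 in the controls. It passed the filter in 2 arrays, those of exposed embryo 1 with NTD and control 1, and the log2 fold change was -0.38 (95% interval -1.48 to 0.71, limma adjusted p = 0.736). Its other probe set, 1421246_at, matched to the same transcript record, lay below the filter on all arrays, with signals of 59.9 and 21.2 in the embryos with NTD and 88.5, 68.5 and 82.8 in those without NTD, against 85.6 and 80.5 in the controls. By this probe set exposed embryo 1 without NTD was the highest of all 7. The Pax9 probe sets also ordered the exposed groups in opposite ways, with the embryos with NTD higher on average by 1421247_at (114 ± 39.0, n = 2, against 64.7 ± 23.7, n = 3, without NTD) and lower by 1421246_at (40.6 ± 27.4, n = 2, against 79.9 ± 10.3, n = 3).

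The genes that share the sclerotome with Pax1 and Pax9 were not low together in exposed embryo 1 without NTD. Of the 10 tested genes of a sclerotome list, 4 were lower in this embryo than in the other 4 exposed embryos, and 4 were higher. Meox2, a homeobox gene of somites, was among the lower, with 226 in this embryo against 356 to 475 in the other exposed embryos. Sox9, a regulator of cartilage, was among the higher, with 468 against 205 to 414. The share of all tested probe sets that were lowest or highest in this embryo was not counted, so these counts cannot be read as particular to sclerotome genes.

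**Figure D3:**
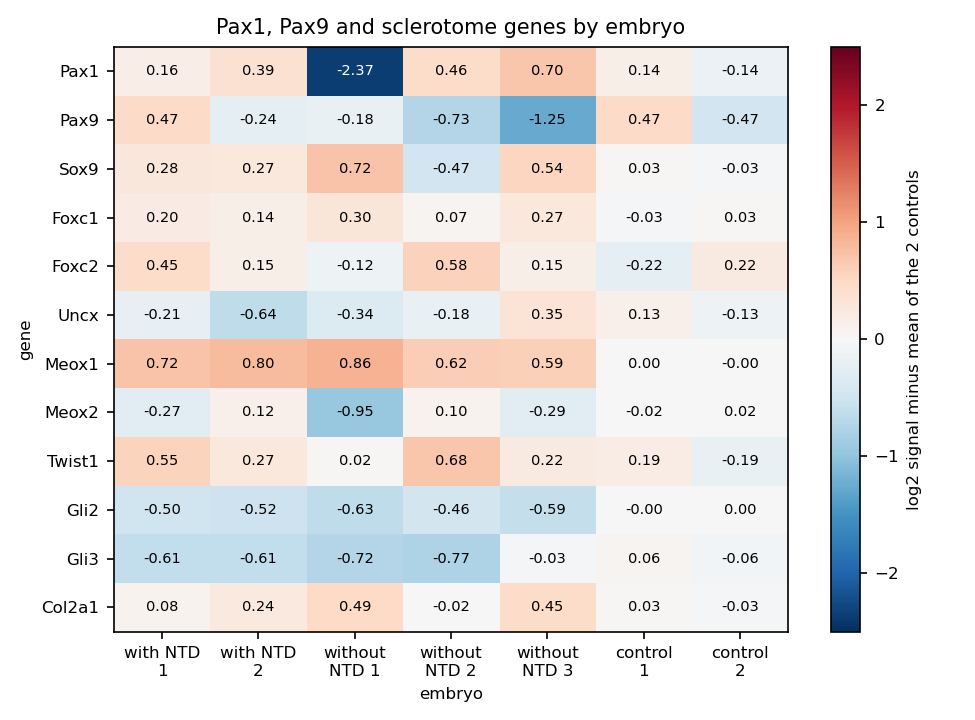
Log2 signal of Pax1, Pax9 (tested probe sets) and the 10 tested sclerotome genes in each embryo, minus the mean of the 2 controls, with exposed embryos left of the controls. Pax1 stands at -2.37 in exposed embryo 1 without NTD and between 0.16 and 0.70 in the other exposed embryos, while Meox1 is higher and Gli2 lower than the controls in all 5 exposed embryos.

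Pax8, which is expressed at the midbrain-hindbrain boundary, in the early kidney and in the thyroid, had signals of 144 and 157 in the embryos with NTD and 233, 155 and 197 in those without NTD, against 157 and 177 in the controls. The exposed embryos lay on both sides of the controls, with exposed embryo 1 without NTD the highest. The log2 fold change was 0.07 (95% interval -0.45 to 0.58, limma adjusted p = 0.915).

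Pax4 and Pax5 gave signals near the bottom of the arrays, and no difference was detectable at such levels. Pax4, a gene of the endocrine pancreas, had signals of 10.7 and 16.3 in the embryos with NTD and 9.00, 7.85 and 8.02 in those without NTD, against 22.5 and 7.56 in the controls, all under the 14th percentile. The 2 controls differed more from each other than any 2 exposed embryos did. Pax5, which in the embryo marks the midbrain-hindbrain boundary, had signals of 19.6 to 24.1 in exposed embryos, against 19.0 and 21.1 in controls, with 4 of the 5 exposed embryos above both controls and no tested difference. Fitted without the filter, 0 of the 14 Pax probe sets were called (limma adjusted p = 0.457 to 0.998).

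Between embryos with and without NTD, the comparison closest to the known role of Pax3, none of the tested Pax probe sets was called. In the fit of 3 groups, limma called 0 of the 8 and 0 of all 14554 probe sets (0%), and at an unadjusted p under 0.05 it gave 0 of the 8, against 440 of 14554 (3.02%). Pax3 had a log2 fold change, with NTD minus without NTD, of -0.16 (95% interval -0.68 to 0.37) by 1420389_at and of -0.24 (95% interval -0.75 to 0.27) by 1430335_a_at, both with a limma adjusted p of 0.999. The means of 1420389_at were 431 ± 141 (SD, n = 2) with NTD and 475 ± 105 (SD, n = 3) without NTD, a difference well within the spread of either group. Of the 8 probe sets 6 were lower and 2 higher with NTD, from -0.35 for Pax8 to 0.83 for Pax9, and in 0 of the 8 did the embryos with NTD all lie on the same side of those without NTD, which occurred for 16.1% of all tested probe sets. The untested probe sets of Pax4 and Pax9 (1421246_at) did separate these groups, Pax4 with higher and Pax9 with lower signals in the embryos with NTD, but at levels below the 14th and the 32nd percentiles. Without the filter these were 2 of 14 Pax probe sets whose signals did not overlap, against 16.4% of all. Fitted without the filter, Pax9 by 1421246_at had a log2 fold change of -1.15 (95% interval -2.20 to -0.11, unadjusted p = 0.034, limma adjusted p = 0.9996), the only one of the 14 with an unadjusted p under 0.05, against 3.26% of all.

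Each exposed group was also set against the same 2 controls. Without NTD the log2 fold changes of the 8 probe sets were -0.72 to 0.38 against controls, and 0 were called, where 43 of 14554 were called (0.295%). With NTD they were -0.66 to 0.27 against controls, and 0 of the 8 were called (0% of 14554, with 1120, or 7.7%, at an unadjusted p under 0.05). For Pax3 the order of the group means by 1420389_at was without NTD, control, with NTD (475, 461 and 431), and by 1430335_a_at without NTD, with NTD, control (332, 279 and 253), and no neighbours in either order differed beyond their spread. Both comparisons share the controls.

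The genes of the tissues in which the Pax genes act were counted in 10 lists, with 1 probe set a gene. Of the 130 genes on these lists 77 were tested, and 0 were called in either direction. At an unadjusted p under 0.05 there were 13 (16.9%), 6 higher and 7 lower in exposed embryos, against 16.2% of all tested probe sets. The median log2 fold change of the 77 was 0.05.

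In the territories of Pax3 and Pax7, Sox10 and Snai1, transcription factors of the neural crest, had the smallest p-values of 14 tested genes of the dorsal neural tube and neural crest. Sox10 had signals of 365 and 445 in the embryos with NTD and 400.2, 371 and 388 in those without NTD, against 289 and 268 in the controls, so that all exposed embryos lay above both controls. Its log2 fold change was 0.50 (standard error 0.14, limma adjusted p = 0.139), with 0.60 for its other tested probe set, and that of Snai1 was 0.50 (limma adjusted p = 0.176). The list had 9 positive and 5 negative values, with a median of 0.19. Among 11 tested genes of the dermomyotome, the values of smallest p were 0.72 for Meox1, a homeobox gene of somites (limma adjusted p = 0.0597), and 0.53 for Dmrt2, a regulator of the dermomyotome (limma adjusted p = 0.195), and the median was -0.04.

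In the sclerotome list, Meox1 had signals of 994 and 1053 in the embryos with NTD and 1100, 929 and 913 in those without NTD, against 605 and 605 in the controls. Gli2, a transcription factor of hedgehog signalling, which induces Pax1 in the sclerotome, had signals of 808 and 798 in the embryos with NTD and 741, 832 and 759 in those without NTD, against 1145 and 1147 in the controls. The exposed embryos lay apart from the controls for both genes, in opposite directions. The log2 fold change of Gli2 was -0.54 (limma adjusted p = 0.0807), but 0.07 for its other tested probe set, and the median of the 10 genes was 0.22.

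In the territories of the other Pax genes no list held a called gene either. Of the genes at the midbrain-hindbrain boundary, Wnt1, a signal of that boundary, had 0.52 (limma adjusted p = 0.237). Spry1, an inhibitor of FGF signalling, had 0.16, and the median was 0.15 over 6. In the nephric duct and kidney list, Gfra1, a receptor for GDNF, had -0.68 and Eya1 -0.44 (limma adjusted p = 0.262 and 0.267), with a median of -0.16 over 9. In the eye and forebrain list Mab21l1 had -0.29 (-0.84 for its other tested probe set) and Sox2 -0.16, and the 8 genes ran from -0.29 to 0.13 with a median of -0.03. The 4 tested genes of the ventral spinal cord were all positive, with 0.23 for Irx3 and 0.21 for Isl1 and a median of 0.22. In the pancreas list Insm1, a zinc finger gene of endocrine and neural precursors, had -0.80 and Neurog3 0.44 (limma adjusted p = 0.167 and 0.318), with a median of 0.21 over 7.

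Among proteins that act with Pax proteins, Paxbp1, which binds Pax3 and Pax7, had the smallest p of 10 tested genes. Its signals were 883 and 903 in the embryos with NTD and 873, 1010.0 and 1043 in those without NTD, against 1206 and 1412 in the controls, with all exposed embryos below both controls. The log2 fold change was -0.47 (standard error 0.13, limma adjusted p = 0.133), and -0.14 for its other tested probe set. Pagr1a, a partner of the Pax-interacting protein Paxip1, had 0.28 (limma adjusted p = 0.315), and the median of the list was 0.06. The genes of the Eya, Dach and sine oculis homeobox families, which form a network with Pax genes in the eye, ear, kidney and muscle, had a median of -0.16 over 8 genes, from -0.44 for Eya1 to 0.23 for Six2.

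**Figure D4:**
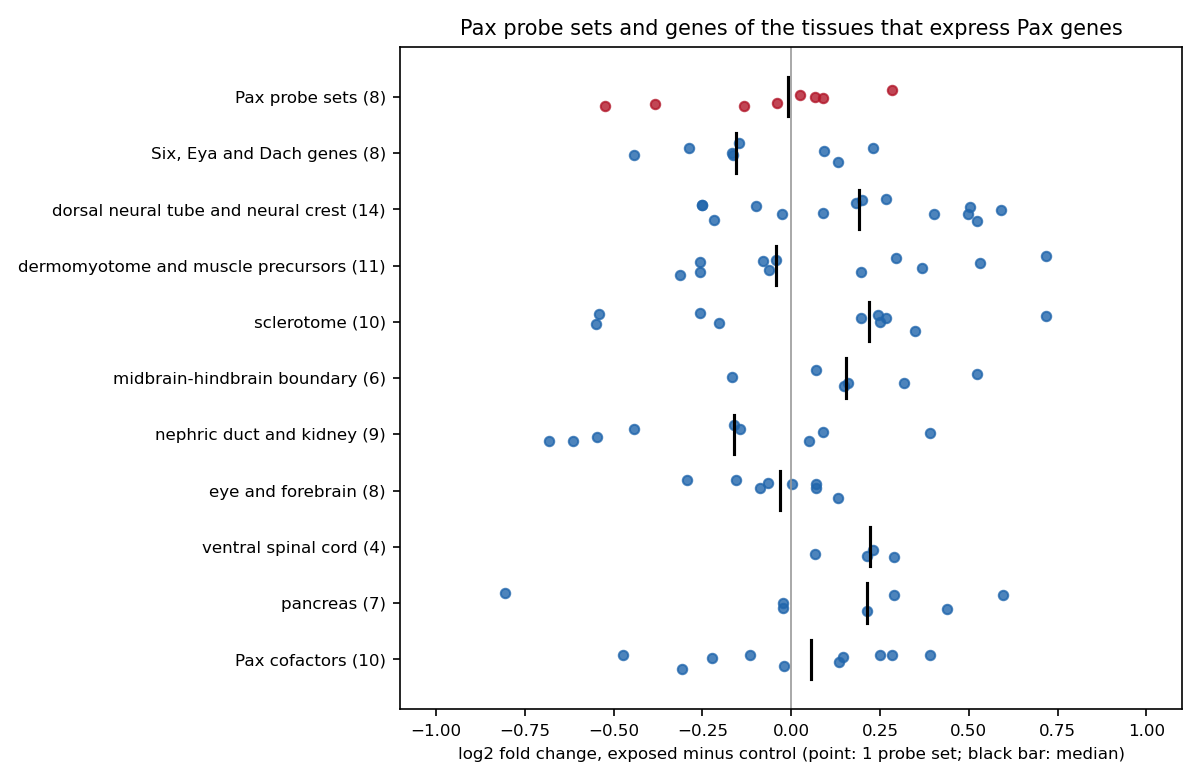
Log2 fold changes, exposed minus control, of the 8 tested Pax probe sets (top row) and of the tested genes in each of 10 lists of Pax territories and partners, with the number of genes in parentheses and black bars at the medians. The Pax values lie between -0.53 and 0.28, and no point in any row was called.

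Summed signals of neural, red blood cell, heart, and placenta and decidua genes did not overlap between exposed and control embryos, and are given beside the Pax values. For heart genes the sum was 8368 to 10115 in exposed embryos, against 7999 to 8274 in controls. For placenta and decidua genes it was 808 to 1185, against 595 to 730. Of that list 5 genes were measured and 2 tested, and only Hand1 had signals that did not overlap (403 to 543, against 246 and 268). The sum therefore cannot be read as a difference of the list as a whole. The sums of limb bud and somite genes overlapped. Those of yolk sac and liver genes overlapped through exposed embryo 1 without NTD alone, at 25252.5. They were 2553 and 2857 in the embryos with NTD and 1706 and 2802 in exposed embryos 2 and 3 without NTD, below 4252 and 3629 in the controls. Of single tested probe sets, 24.7% did not overlap. Of 9 tested genes of neural tissue, in which Pax3, Pax6 and Pax7 are expressed, 8 were negative, against 49.9% of all tested probe sets. The median was -0.24, and only Map2 was called. Among the negative genes, Nes (-0.0003) and Elavl3 (-0.01) lay near 0, with -0.12 for the other tested probe set of Nes and -0.28 and -0.53 for those of Elavl3. Sox3 was positive, with 0.46 for both of its tested probe sets. Map2, which binds microtubules in neurons, fell to a mean of 125 ± 16.9 (SD, n = 5) in exposed embryos, against 378 ± 26.4 (SD, n = 2) in controls (limma adjusted p = 0.0279), a call that was lost without control 1 (0.215), without control 2 (0.251) and without exposed embryo 3 without NTD (0.0599). The log2 fold change of Map2 was -1.60, and -3.90 for its other tested probe set. The summed signal of the 10 measured neural genes was 8431 to 10450 in exposed embryos, against 11572 to 11744 in controls. Of 7 genes of primitive red blood cells 0 were called, but all 7 were positive, with a median of 0.60. All 7 had an unadjusted limma p under 0.05, against 16.2% of all tested probe sets. Their summed signal was 64998 to 84086 in exposed embryos, against 52401 to 54690.3 in controls. The part of these differences in the Pax values was not tested.

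For each Pax gene whose brightest probe set was tested, the most similar profiles over the 7 arrays were sought among 13392 probe sets of other genes. Pearson's r of log2 signals served as the measure of likeness, as a description over 7 embryos. The closest to Pax1 were Ltv1 (r = 0.99) and Nop53 (r = 0.98), to Pax3 Smc6 (0.99) and Camkk2 (0.98), to Pax6 Eef1a2 (0.98) and Rpn1 (0.98), to Pax7 Hdhd5 (0.97) and C130026I21Rik (0.97), to Pax8 Adamts1 (0.99) and Lox (0.98), and to Pax9 Boc (0.97) and Lrrc41 (0.96). No gene stood on 2 of these lists. None of these genes was called between exposed and control embryos, but they were picked for likeness to uncalled Pax probe sets. Of all tested probe sets 0.172% were called. Each r was among the highest of a search over 13392 probe sets in 7 arrays, which by itself favours high values.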

How the data were processed

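The authors deposited MAS5 intensities on a linear scale, which combine matched and mismatched probes. Each array had been scaled, and its mean was 500.2 when 2% of probe sets were trimmed at either end. No MAS5 version was found in the sources. Symbols came from the array annotation, updated through gene IDs, and 64 control probe sets were set aside. Signals below 1 were set to 1, log2 was taken, and the probe sets that passed the filter were fitted with limma (3.58.1, R 4.3.3), letting the prior spread follow the mean signal. The 5 exposed embryos were set against the 2 controls, as in the study's methods, and the 3 groups in a second fit. The fits were checked on simulated data. List genes were given by their brightest probe set, and the 2 of smallest p in each list were named, with all Pax probe sets. The members and lists were chosen with earlier results of these data known. The alternatives changed the normalization, floor, offset, filter, spread, weights, test, samples and block. The number of arrays limits the precision. Tables were made with pandas 2.3.3 in Python 3.11.15, tests with SciPy 1.17.1 on NumPy 2.4.6, and plots with Matplotlib 3.10.9.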

Additional observations from a re-analysis of the deposited data

Results flagged for a closer look

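Among the log2 signals of the 5 exposed embryos, 4 of the 14 Pax probe sets held an embryo far from the others by Dixon's ratio, the gap to the nearest embryo over the whole range, with a critical value of 0.71. For normally distributed values the rule flags about 1 in 20 such groups. The share flagged over all probe sets was not counted, so 4 of 14 cannot be read as an excess for Pax genes. For Pax1 the ratio was 0.823 for exposed embryo 1 without NTD, at 30.3 against 175 to 255 in the other exposed embryos and 142 and 173 in the controls, but 0.643 on the linear scale, under the critical value. The other 3 probe sets were below the filter on low signals, and on the linear scale only the Pax6 ratio was above the critical value. For Pax5 the ratio was 0.729 for exposed embryo 1 with NTD, the lowest at 19.6. For Pax6 by 1425960_s_at it was 0.723 for exposed embryo 2 with NTD, the highest at 29.1, while the controls had 11.7 and 37.2. For Pax9 by 1421246_at it was 0.727 for exposed embryo 2 with NTD, the lowest at 21.2.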

How the results depend on the processing

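The count of called Pax probe sets was 0 under each of 21 alternatives for exposed against control embryos and each of 16 for embryos with against without NTD. Over the alternatives the smallest limma adjusted p of a tested Pax probe set was 0.269, for Pax6 with array quality weights. The t-tests named in the study's methods were rewritten and run here on log2 signals. The percentile filter stood in place of the study's present and marginal calls, and the counts are not those of the study. Both gave 0 of 8 at an unadjusted p under 0.05, Welch's test (2651 of all 14554, and 0 after adjustment) and Cyber-T (3661, and 1304 after adjustment). Against 25 calls over all probe sets, there were 8 without the filter, 10 without the trend, 50 with an offset added to the signals and 491 with array quality weights, and leaving out each embryo gave 0 to 58. The 10 lists also held 0 called genes without exposed embryo 1 without NTD, after quantile normalization and after median centring, a check chosen after the values were seen. The median log2 fold change of the Pax probe sets was -0.09 to 0.06. No overlap between the groups was found for 2 probe sets without exposed embryo 1 without NTD (Pax1 and Pax6, 29.1% of all tested probe sets) and for 2 without control 2 (Pax3 and Pax6, 44.7% of all), and over leaving out each embryo the count was 0 to 2. Signs that turned were all of values that were not called. With array quality weights Pax1 had 0.13 and Pax8 -0.017, and without the embryos with NTD Pax3 (1420389_at) had 0.023. Over leaving out each embryo, the log2 fold change was -0.34 to 0.43 for Pax1, -0.14 to 0.069 for Pax3 (1420389_at), -0.035 to 0.089 for Pax6 (1419271_at), -0.062 to 0.24 for Pax7, -0.037 to 0.15 for Pax8 and -0.86 to 0.086 for Pax9, and without a change of sign 0.13 to 0.44 for Pax3 (1430335_a_at) and -0.78 to -0.27 for Pax6 (1452526_a_at), with the lone control then taken to have the spread of the exposed embryos. With the replicate number of the labels as a block the count of called Pax probe sets stayed 0 and their median was 0.01, 0 of all 14554 were called, Map2 was lost (limma adjusted p = 0.116), and this fit gave the estimates of leaving out exposed embryo 3 without NTD, which alone bears its number. The deviations of same-numbered embryos correlated at r = -0.25 to 0.03, so no likeness by number was seen. In a group of 2 the deviations mirror each other, so these few values are not independent. They cannot settle whether the numbers pair the embryos.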
